A study of Homo sapiens with 3 samples.

Results

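The aldo-keto reductase genes AKR1A1, AKR1B1, AKR1C1, AKR1C2 and AKR1C3 were followed together with NQO1, GCLM, GCLC, HMOX1 and TXNRD1, genes known for their response to the transcription factor NRF2, in A2780 ovarian cancer cells with added miR-181a. The 10 genes are listed by symbol, with every RefSeq transcript that carries 1 of those symbols, which gave 19 transcripts of the 28848 used and 10 genes of 18674. The group was chosen on measured values, since AKR1C1 had one of the highest folds of miR-181a cells over vector cells in these same libraries and the other members were gathered around it. Levels and folds of the members are therefore given as a description, with no test.

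A2780 is an established human ovarian cancer line, and all 3 RNA sequencing libraries came from it. The cells expressing exogenous miR-181a gave 2 libraries, p181a #1 and p181a #2, called pool 1 and pool 2 here, and the cells with the empty pBABE vector gave 1 library. The labels describe the miR-181a cells as polyclonal pools in one field and as clones in another, and nothing says whether the pools came from separate transductions, so a p-value here rests on the spread of the 2 pools alone, and that spread may be technical. The promoter that drives miR-181a is not given in the sources used here, and no level of the miRNA was analysed here.

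Aldo-keto reductases use NADPH to reduce carbonyl groups of sugars, steroids, retinal and products of lipid oxidation. NRF2, encoded by NFE2L2, is held at low levels by KEAP1, which hands it to a ubiquitin ligase for degradation. Oxidants and electrophiles interrupt this, and NRF2 then pairs with a small MAF protein and binds antioxidant response elements near genes for glutathione synthesis, thioredoxin reduction, quinone reduction and several human AKR1 enzymes. BACH1 competes for the same elements and holds down HMOX1 in particular.

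The mature miR-181a-5p sequence is shown because it is the agent added to the cells, with the seed, bases 2 to 8, in capitals (RefSeq, GRCh38.p14; MIR181A1 copy at chr1:198859108-198859130, minus strand, and MIR181A2 copy at chr9:124692480-124692502, plus strand).
hsa-miR-181a-5p: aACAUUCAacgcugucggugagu

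The letters complementary to this seed, TGAATGT, were searched for in the 3′ UTR of 1 canonical GENCODE transcript per gene on GRCh37. Of 19063 UTRs, 3664 (19.22%) held a match. All 10 members had a UTR there, from 93 bases in AKR1A1 to 5541 bases in AKR1C1, and a match was found in AKR1C1 alone, 3090 bases after the stop codon. Whether the AKR1C1 RefSeq transcript whose coverage is given below reaches that far was not checked. Of UTRs of a length close to that of AKR1C1 (0.8 to 1.25 times), 52.58% held a match. The site is shown with the match in capitals, at chr10:5023013-5023041 on GRCh37, plus strand.
AKR1C1 site: gtcacgaatcaTGAATGTttttaatggca

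The start of the coding sequence is shown for the AKR1C genes, which lie side by side on chromosome 10, because their likeness bears on how reads can be told apart. Capitals mark the 8 positions of the first 60 at which the 3 genes are not all alike (GRCh37; AKR1C1 at chr10:5005637-5005696, plus strand; AKR1C2 at chr10:5045968-5046027, minus strand; AKR1C3 at chr10:5136637-5136696, plus strand).
AKR1C1: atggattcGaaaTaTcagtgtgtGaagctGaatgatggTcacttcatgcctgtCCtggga
AKR1C2: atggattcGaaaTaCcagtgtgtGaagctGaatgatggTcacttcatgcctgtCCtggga
AKR1C3: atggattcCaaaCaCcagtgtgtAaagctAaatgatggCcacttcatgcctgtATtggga
In this stretch AKR1C2 differs from AKR1C1 at 1 position and AKR1C3 at 8. Over the whole coding sequence of 969 bases, AKR1C1 and AKR1C2 were identical at 950 positions (98.04%), AKR1C1 and AKR1C3 at 886 (91.43%), and AKR1C2 and AKR1C3 at 882 (91.02%). Reads were 100 nt long. Of the 870 windows of 100 bases in the AKR1C1 coding sequence, 164 (18.85%) also occur unchanged in AKR1C2, and 672 (77.24%) differ from the matching AKR1C2 window by at most 2 bases. How the authors placed reads that match both genes is not given in the sources used here, so the separate values of AKR1C1 and AKR1C2 are uncertain.

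Windows of 300 bases around gene starts (250 before and 50 after, RefSeq, GRCh38.p14) were searched for the core antioxidant response element TGACNNNGC on both strands. The table matched 9 members with 12 windows, and 3 of the 12 windows held the core, in GCLM and in both windows of TXNRD1. Of all 35116 windows 4687 (13.35%) held it. HMOX1 was the member without a window. Stretches outside the windows were not searched, so a window without the core does not show that its gene lacks the element. The AP-1 site TGANTCA, whose letters can overlap this element, was in none of the 12 windows and in 7.71% of all windows. The stretches with the core are shown because the element is the textbook link of these genes to NRF2, and capitals mark the 9 letters of the core. The GCLM stretch is at chr1:93909440-93909480, minus strand, and the TXNRD1 stretches at chr12:104215664-104215704, chr12:104215755-104215795 and chr12:104286914-104286954, plus strand.
GCLM: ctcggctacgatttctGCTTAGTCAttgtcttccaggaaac
TXNRD1 upstream start, first: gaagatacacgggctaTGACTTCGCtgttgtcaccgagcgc
TXNRD1 upstream start, second: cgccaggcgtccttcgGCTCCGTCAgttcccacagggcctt
TXNRD1 downstream start: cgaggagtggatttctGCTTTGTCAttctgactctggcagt
A match to these letters is a description of the window and not a bound site.

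The deposited value of a transcript is a coverage, the median read density over windows of 50 bp, on a linear scale, and no read counts come with it, so depth is unknown. The vector library stood apart from both pools. It listed 12.8% of transcripts at 0, against 32.3% in pool 1 and 32.2% in pool 2, and 62.9% of the 8822 transcripts at 0 in both pools had a vector value above 0. Among transcripts with a pool mean from 1 to 10, the vector value was more than 4 times the pool mean in 14.3%, and the pool mean was more than 4 times the vector value in 3.02%; at pool means from 10 to 50 these shares were 2.41% and 0.525%. Where transcripts of 1 gene shared the same values in both pools (1408 sets), their vector values differed in 1103 sets and by more than 4 times in 148. Hepatocyte markers summed to 0 in both pools, with all 7 at 0, and to 111 in the vector library, and of 6 immune markers 4 were at 0 in both pools (sums of 2.36, 2.44 and 37.3 in pool 1, pool 2 and vector). Of 11 ovarian carcinoma and epithelial markers 9, PAX8, EPCAM and MUC16 among them, were at 0 in both pools, and WT1, SOX17, CDH1 and KRT7 were at 0 in all 3 libraries; the 11 summed to 15.8, 15.4 and 234. There is no second vector library, so no result can be given without this one, and the part that its excess plays in the lower values below was not tested. In bulk RNA, fewer cells with a transcript and less transcript per cell cannot be told apart.

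Folds are differences of log2(coverage + 1), pool minus vector, which understate the change of genes of low coverage. For each gene the transcript with the highest mean over the 3 libraries stood for the gene. Where transcripts shared their pool values, this picked the highest vector value and so the lowest fold. Genes with a pool mean above 50 had a median log2 fold of 0.64 in pool 1 and 0.30 in pool 2, and folds called shifted are given relative to these. Such genes were picked by their pool values alone, which favours genes high in the pools. A gene is called higher where both pools lay 1 log2 unit or more above the vector library, and lower where both lay as far below it. By that size rule 2.53% of the 12552 tested genes were higher and 27.3% lower. Of the 10 members, AKR1C1 and NQO1 were higher, AKR1C2, AKR1C3, GCLC and HMOX1 were lower, and AKR1A1, AKR1B1, GCLM and TXNRD1 were neither. These shares come from the same contrast that brought the members together, so nothing is read from the counts. The same holds for the ranks and shares of single members over the vector value given below, which are a description and no test. Of the members 9 passed the filter on low values and AKR1C3 did not. The median of the members' mean log2 folds was 0.13, against 0.07 over all tested genes. After the shift NQO1 was no longer among the higher genes, and the 4 lower ones stayed lower. With library medians set equal instead, folds moved the other way. NQO1 then stayed higher, and AKR1C3 and HMOX1 were no longer lower. The mean log2 folds of AKR1A1, AKR1B1, GCLM and TXNRD1 were 0.53, 0.79, 0.56 and 0.71 under that scaling. Neither scaling is taken as the correct one.

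**Figure D1:**
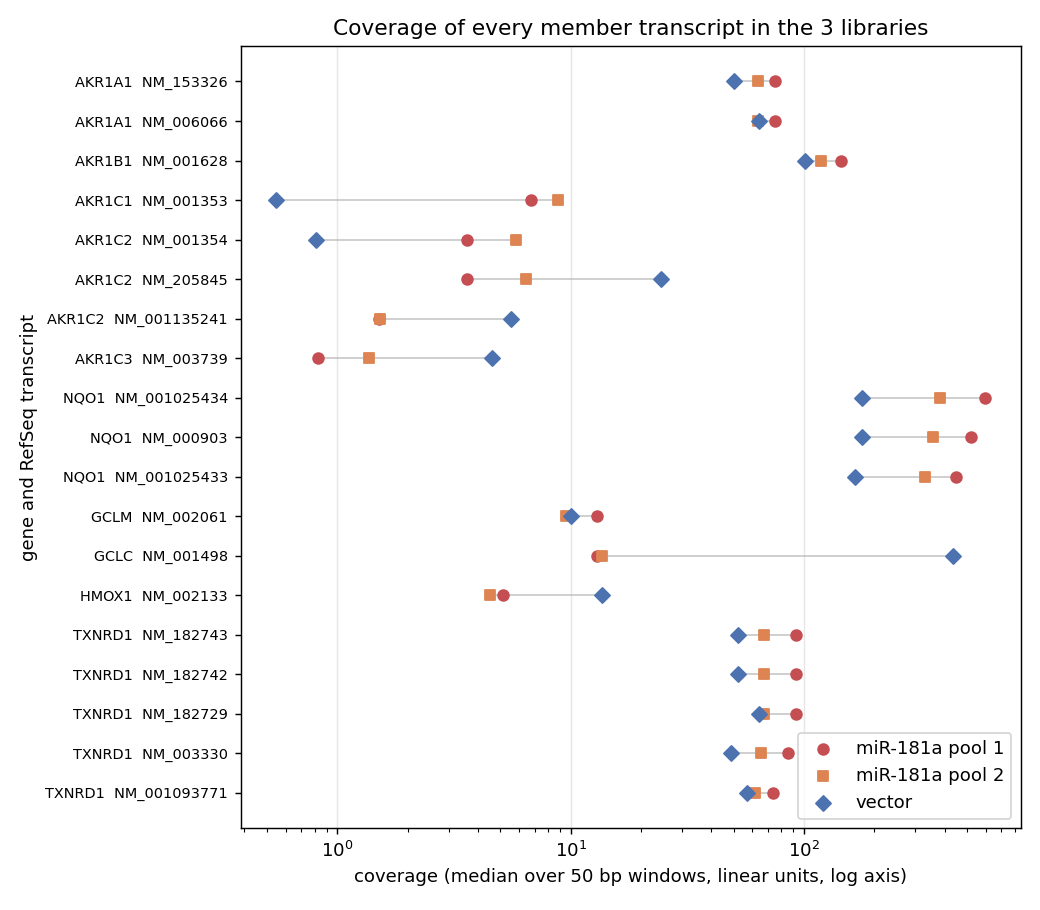
Coverage of each of the 19 member transcripts (rows) in miR-181a pool 1 (circles), miR-181a pool 2 (squares) and the vector library (diamonds), 1 library each, on a log axis. AKR1C1 lies at 6.75 and 8.81 in the pools against 0.546 in the vector library, GCLC at 13.0 and 13.6 against 435, and the AKR1C2 transcripts lie on both sides of their vector values.

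AKR1C1, a reductase of 20-ketosteroids such as progesterone, stood higher in both pools (chromosome 10, 5005607 to 5025475 on GRCh37). Its single transcript, NM_001353, had a coverage of 6.75 in pool 1 and 8.81 in pool 2, against 0.546 in the vector library. Both pool values lay 12.4 and 16.1 times above the vector value, with log2 folds of 2.33 and 2.67 (mean 2.50, SD 0.24, n = 2) and shifted folds of 1.68 and 2.37. Of the tested genes 7, AKR1C1 included, had a mean fold as high. The pool values lay above those of the median transcript, 5.76 in pool 1 and 4.50 in pool 2. The vector value lay far under its median of 8.74, so the size of the fold rests on 1 low vector value.

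AKR1C2, which inactivates dihydrotestosterone and differs from AKR1C1 at few residues, gave opposite directions in different transcripts (chromosome 10, 5029967 to 5046049). NM_001354 had 3.58 in pool 1 and 5.86 in pool 2, against 0.813 in the vector library, log2 folds of 1.34 and 1.92. NM_205845, which stands for the gene here, had 3.58 in pool 1 and 6.42 in pool 2, against 24.4 in the vector library, log2 folds of -2.47 and -1.78. These transcripts shared their pool 1 value and came close in pool 2, so the opposite directions rest on their vector values.

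The remaining AKR1C2 transcript, NM_001135241, had 1.51 in pool 1 and 1.53 in pool 2, against 5.53 in the vector library. A gene with 1 transcript higher and another lower by the size rule was uncommon, at 26 of the 5775 genes with several transcripts (0.45%). A single direction for AKR1C2 therefore cannot be given from this table.

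AKR1C3, which makes testosterone and prostaglandin F from their keto precursors, was the least covered member (chromosome 10, 5136606 to 5149878). NM_003739 had 0.828 in pool 1 and 1.36 in pool 2, against 4.61 in the vector library, log2 folds of -1.62 and -1.25 (mean -1.43, SD 0.26, n = 2). Both pools were lower than the vector library. Among transcripts with a pool mean from 0.5 to 2.5, 33.5% had a vector value at least as many times above their pool mean.

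AKR1B1, the aldose reductase that turns glucose into sorbitol, was evenly and well covered (chromosome 7, 134127108 to 134143852). It had 144 in pool 1 and 119 in pool 2, against 101 in the vector library. Both pools were higher, with log2 folds of 0.51 and 0.23, but the shifted folds were -0.13 and -0.06. Relative to other well-covered genes AKR1B1 lay slightly under 0 in both pools. With library medians set equal its mean log2 fold was 0.79, so its direction depended on the scaling.

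AKR1A1, the broad aldehyde reductase of the family, has a pair of transcripts in the table (chromosome 1, 46016498 to 46035721). Both had 75.4 in pool 1 and 63.4 in pool 2, against vector values of 63.9 for NM_006066 and 50.3 for NM_153326. With NM_006066, used for the gene, the log2 folds were 0.24 and -0.01 and the shifted folds -0.41 and -0.31. With NM_153326 the log2 folds were 0.58 and 0.33 and the shifted folds -0.07 and 0.03. The pools straddled the vector value of the first transcript and lay above that of the second.

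NQO1, the quinone reductase that is a standard readout of NRF2, was the most covered member in the pools and stood higher in both (chromosome 16, 69743304 to 69760463). NM_001025434 had 597 in pool 1 and 381 in pool 2, against 178 in the vector library, log2 folds of 1.74 and 1.09 (mean 1.42, SD 0.46, n = 2). NM_000903 had 521 in pool 1 and 355 in pool 2, against 177 in the vector library. NM_001025433 had 446 in pool 1 and 330 in pool 2, against 165 in the vector library, and its fold in pool 2, 0.99, fell just short of the size rule.

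All 3 NQO1 transcripts were higher in both pools, with pool 1 above pool 2 each time. The shifted folds of NM_001025434 were 1.10 and 0.80. Of the tested genes 0.844% had a mean fold as high as that of NQO1. Among 1457 transcripts with a pool mean from 100 to 1000, 1.58% had pools at least as far above the vector value as NM_001025434. The group was chosen on folds of this kind, so both shares are a description and no test.

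GCLC and GCLM encode the catalytic and modifier subunits of glutamate-cysteine ligase, the first step of glutathione synthesis. GCLC (NM_001498, chromosome 6, 53362139 to 53409899) had 13.0 in pool 1 and 13.6 in pool 2, against 435 in the vector library, log2 folds of -4.97 and -4.90 (mean -4.93, SD 0.05, n = 2). GCLM (NM_002061, chromosome 1, 94350755 to 94374986) had 13.0 in pool 1 and 9.57 in pool 2, against 10.0 in the vector library, log2 folds of 0.34 and -0.06. In the pools the coverage ranges of the subunits overlapped, and in the vector library GCLC stood far above GCLM.

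The vector value of GCLC was 32.8 times its pool mean. Of 3805 transcripts with a pool mean from 10 to 20, 5, GCLC included, had a vector value as many times above (0.131%). GCLC has 1 transcript in the table, so its vector value has no second reading. GCLM lay within the spread of the pools around its vector value, and its shifted folds were -0.30 and -0.36.

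HMOX1, the inducible haem oxygenase, was lower in both pools (chromosome 22, 35777089 to 35790200). NM_002133 had 5.11 in pool 1 and 4.53 in pool 2, against 13.6 in the vector library, log2 folds of -1.26 and -1.40 (mean -1.33, SD 0.10, n = 2). The pools were close to each other and both lay under the vector value. Among transcripts with a pool mean from 2.5 to 10, 14.4% had a vector value at least as many times above their pool mean, and for AKR1C2 NM_205845 this share was 7.49%. The same band of coverage held pools as far above the vector value as in AKR1C1 in 0.172% of transcripts and as in AKR1C2 NM_001354 in 0.710%. AKR1C1 was chosen for its fold, so a low share follows from that choice, and these shares test nothing.

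TXNRD1, the cytosolic thioredoxin reductase, has 5 transcripts in the table (chromosome 12, 104609557 to 104744085). NM_182729, NM_182742 and NM_182743 all had 92.2 in pool 1 and 67.6 in pool 2, against vector values of 64.1 for NM_182729 and 52.3 for the other two. NM_003330 had 85.5 in pool 1 and 65.5 in pool 2, against 48.6 in the vector library. NM_001093771 had 73.9 in pool 1 and 61.8 in pool 2, against 57.0 in the vector library. Every transcript was higher in both pools. The log2 folds of NM_182729, used for the gene, were 0.52 and 0.08, and its shifted folds were -0.13 and -0.22, while those of NM_182742 were 0.16 and 0.07, so the direction relative to other well-covered genes depended on the transcript.

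**Figure D2:**
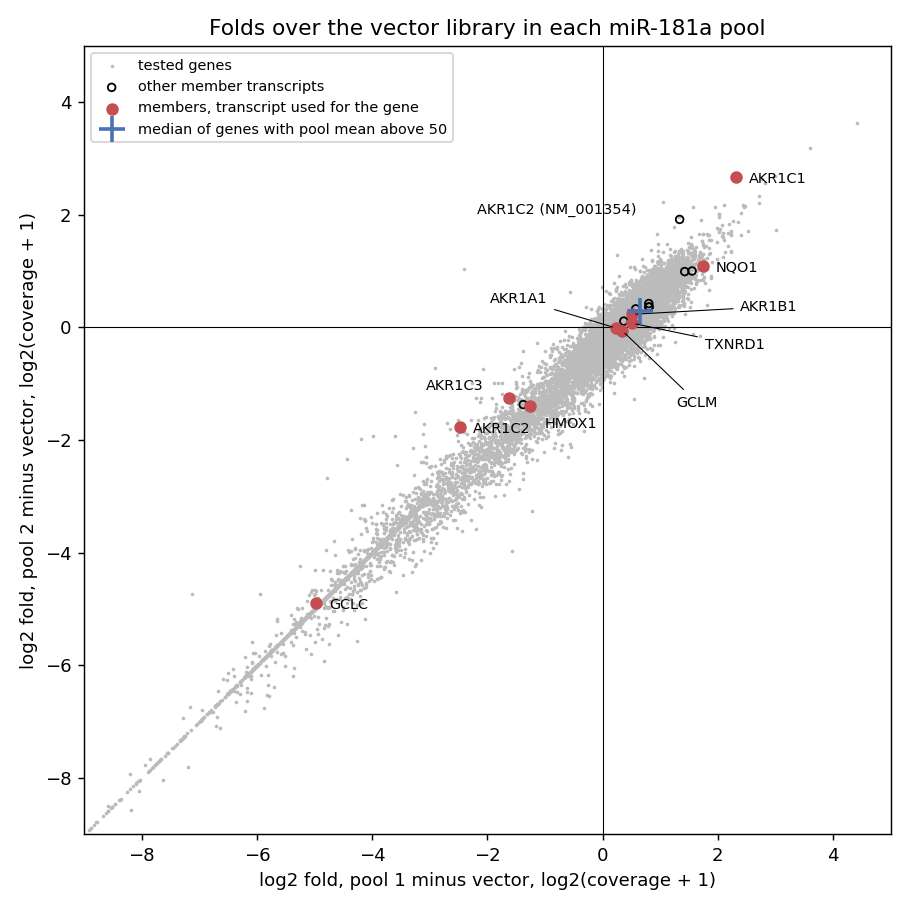
Log2 fold of pool 1 (x axis) and of pool 2 (y axis) over the vector library, on log2(coverage + 1). Grey points are tested genes, red points the 10 members by the transcript used for the gene, open circles their other transcripts, and the cross marks the median of genes with a pool mean above 50 (0.64 and 0.30). AKR1C1 lies at 2.33 and 2.67, GCLC at -4.97 and -4.90, and AKR1A1, AKR1B1, GCLM and TXNRD1 lie close to the cross.

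In the pools the order of levels was NQO1 (489 ± 153, SD, n = 2, as for all in this order), AKR1B1 (131 ± 17.9), TXNRD1 (79.9 ± 17.4), AKR1A1 (69.4 ± 8.47), GCLC (13.3 ± 0.461), GCLM (11.3 ± 2.40), AKR1C1 (7.78 ± 1.46), AKR1C2 (5.00 ± 2.00), HMOX1 (4.82 ± 0.413) and AKR1C3 (1.10 ± 0.378). The values are coverages per window, so gene length does not enter them directly. The pool ranges of TXNRD1 and AKR1A1 overlapped, as did those of GCLC and GCLM and those of AKR1C2 and HMOX1, while no other neighbours in this order did. In the vector library the order began with GCLC at 435, NQO1 at 178 and AKR1B1 at 101 and ended with AKR1C3 at 4.61 and AKR1C1 at 0.546.

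The pools were also compared with each other, a difference that did not enter the choice of the members. With 1 library each there is no test. Pool 2 was below pool 1 in most genes, with a median difference of -0.27 log2 units over the tested genes, and 10.4% of them were higher in pool 2. AKR1C1, AKR1C2, AKR1C3 and GCLC, 4 of the 10 members, were higher in pool 2, by 0.34, 0.69, 0.37 and 0.07 log2 units. The AKR1C2 value is that of NM_205845, the largest of its transcripts. NM_001354 differed by 0.58 and NM_001135241 by 0.01. Differences as high as those of AKR1C1 and AKR1C2 (NM_205845) were found in 1.71% and 0.398% of tested genes. The shares in this paragraph are over tested genes of any coverage. These include the 1535 that fell while at 0 in both pools, whose difference is 0. No share among genes of similar coverage was computed, so how uncommon such differences are at low coverage is not known. The AKR1C genes can share reads, as shown by their sequences, so they do not count as separate observations of this difference. NQO1 lay at the other end of the members, with a difference of -0.65, and 10.15% of tested genes had a difference as low. HMOX1, AKR1A1, AKR1B1, GCLM and TXNRD1 had differences from -0.14 to -0.44.

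**Figure D3:**
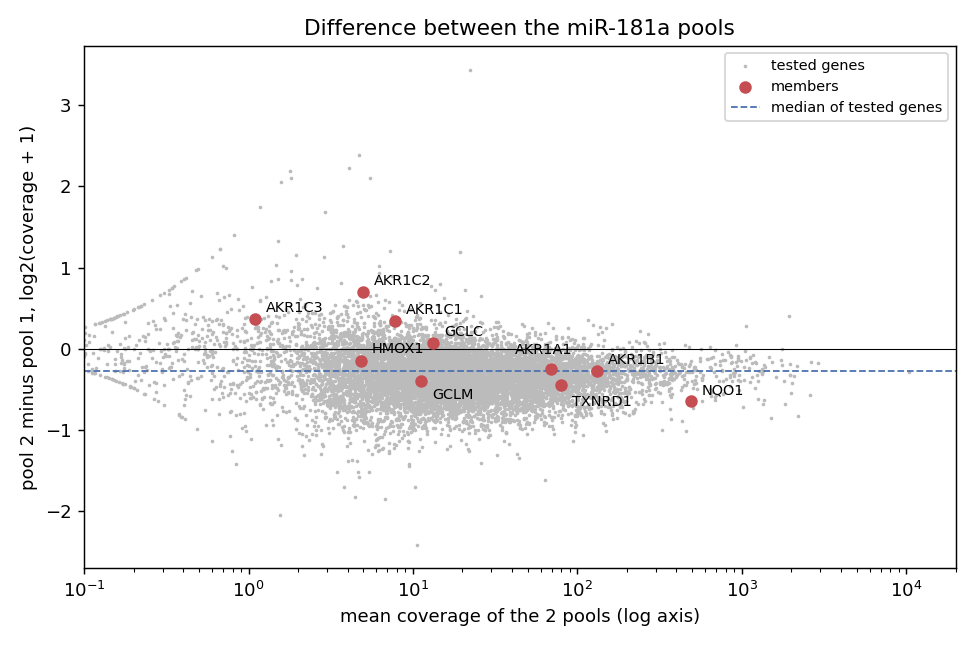
Pool 2 minus pool 1 on log2(coverage + 1) (y axis) against the mean coverage of the pools (x axis, log scale), 1 library each. Grey points are tested genes with coverage in the pools, red points the 10 members by the transcript used for the gene, and the dashed line is the median of tested genes (-0.27). The AKR1C genes lie above 0 and NQO1 lies lowest of the members at -0.65.

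The genes whose values were most like those of AKR1C1 were sought by the Euclidean distance over log2(coverage + 1) in the 3 libraries, among tested genes. They were MID1 (distance 0.40), FKBP7 (0.49), ARSJ (0.57), CDH10 (0.71) and CHAD (0.77). CDH10 was higher in pool 2, with 6.36 in pool 1 and 10.0 in pool 2 against 1.49 in the vector library, and the other 4 were higher in pool 1. MID1 had 9.09 in pool 1 and 8.23 in pool 2, against 0.480 in the vector library.

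Other genes of these pathways were taken from 9 lists of 126 genes, of which 124 were in the table and 102 were tested. Here the limma test across all genes applies, in which 1.00% of genes rose and 21.7% fell at an adjusted p of 0.05, 1535 of the 2725 that fell being at 0 in both pools. No gene of the lists rose and 13 fell (12.7%), but 11 of the 13 had both pools under the low-value limit of 2.44, 7 of them at 0 in both, so that only their vector value brought them into the test. Their falls were fixed by that filter and support nothing, and no p is given for them below. GGT1 and CBR3 are the others. Of the 2725 genes that fell over the whole table, 2250 entered the test in this way. At an unadjusted p of 0.05 by limma, 9 were higher (8.82%) and 16 lower (15.7%), against 5.39% and 27.8% of all tested genes. By the size rule 4 were higher (3.92%) and 15 lower (14.7%). The median log2 fold of the 102 genes was 0.24, against 0.07 over all tested genes. The counts depended on scaling. With library medians set equal, 62 list genes rose and 21 fell by limma, beside 6355 and 3701 of all tested genes, and relative to genes with a pool mean above 50, 8 rose and 40 fell, beside 710 and 5784 of all. The tests below are on the coverage as deposited, and a gene's failure to pass is no sign that it did not change.

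None of the 15 tested regulators of NRF2, of 16 listed, rose or fell by limma (median log2 fold 0.08). With library medians set equal 7 rose and 3 fell, and relative to genes with a pool mean above 50, 1 rose and 7 fell. NFE2L2, which encodes NRF2, had 36.0 in pool 1 and 28.0 in pool 2, against 15.2 in the vector library (log2 fold 1.01, limma adjusted p = 0.182), and its other transcripts were higher in the pools as well. KEAP1, the adaptor that marks NRF2 for degradation, had 68.2 and 50.4 in the pools, against 51.3 in the vector library (log2 fold 0.19, limma adjusted p = 0.692). BACH1 had 12.1 and 10.7 in the pools for both its transcripts, against vector values of 24.1 and 8.70, so its direction depended on the transcript (limma adjusted p = 0.171 for the first). MAFK, a small MAF partner, had 8.67 and 5.97 in the pools, against 47.7 in the vector library (log2 fold -2.57, limma adjusted p = 0.0681).

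Of 13 tested genes of glutathione synthesis and use none rose and 1, GGT1, fell (median log2 fold 0.67). GGT1, which cleaves extracellular glutathione, had 3.83 and 2.94 in the pools in all its transcripts, against vector values from 37.1 to 349 (log2 fold -6.33, limma adjusted p = 0.00874 for the transcript used), and near-identical copies of this gene could share its reads. GSTM1, a glutathione transferase, had 18.6 and 18.5 in the pools, against 3.85 in the vector library (log2 fold 2.01, limma adjusted p = 0.0556), and passed the test in 6 of 9 alternatives. It shares sequence with GSTM2 and GSTM4, and reads could be split among them. Of the list, 9 genes rose and 3 fell with library medians set equal. With the filter on low values at the median 3 rose and 2 fell, and relative to genes with a pool mean above 50, 4 rose and 4 fell. The transferases GSTO1, with 86.0 and 79.2 in the pools against 34.3 in the vector library, and MGST3, with 38.7 and 37.0 against 15.5, passed the size rule and not the test, which each passed in 3 of 9 alternatives. GSTM3 had 6.26 and 4.48 in the pools, against 19.2 in the vector library.

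Among 12 tested thioredoxin and peroxiredoxin genes none rose or fell by limma. With library medians set equal 10 rose, and relative to genes with a pool mean above 50, 1 fell. Of the 12, 7 were higher and none lower in both pools (median 0.45), where 44.6% of all tested genes were higher and 41.8% lower. After the shift 4 were higher and 5 lower, where 23.4% and 65.1% of all tested genes were. TXN, thioredoxin itself, had 98.6 and 100.0 in the pools, against 67.3 in the vector library. The NADPH supply list, with the pentose phosphate enzymes, likewise had none that rose or fell among 8 (median 0.35), 4 higher and 1 lower in both pools, and 4 and 4 after the shift. In that list 6 rose with library medians set equal, and 2 fell relative to genes with a pool mean above 50.

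Haem and iron genes had 1 that fell among 10 tested (median 0.34). It was SLC40A1, the iron exporter ferroportin, with 0.309 and 0.304 in the pools, against 305 in the vector library. With library medians set equal 6 genes of the list rose and 1 fell, and relative to genes with a pool mean above 50, 1 rose and 4 fell. The ferritin genes FTH1 and FTL, classical NRF2 targets, had 443 and 350 and 778 and 520 in the pools, against 419 and 723 in the vector library, with limma adjusted p-values of 0.843 and 0.778.

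Of 11 tested genes of other NRF2-linked detoxification none rose and 5 fell (median -0.09). With library medians set equal 5 rose and 5 fell, and relative to genes with a pool mean above 50, 1 rose and 6 fell. UGT1A1, UGT1A6, ABCC2 and ABCC3, conjugating enzymes and export pumps, were at 0 in both pools with vector values of 19.3, 131, 20.7 and 30.2, and UGT1A1 and UGT1A6 share exons. UGT1A6 and ABCC3 each have another transcript, at 0 in all 3 libraries. CBR3, a carbonyl reductase, was above 0 in the pools, with 2.60 and 2.78 against 10.5 in the vector library (log2 fold -1.64, limma adjusted p = 0.00819).

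Among the other aldo-keto reductases 4 of 11 were tested and 2 fell (median -1.89). With library medians set equal 1 rose and 3 fell, and relative to genes with a pool mean above 50, 3 fell. AKR1B15, a near copy of AKR1B10 that could share its reads, was at 0 in both pools and at 17.2 in the vector library. AKR7L had 0.739 and 1.07 in the pools, against 11.6 in the vector library, in the transcript used, and 0.745 and 1.32 against 0.650 in its other transcript. AKR1C4 and AKR1D1, the liver members of the family, were at 0 in all 3 libraries, as was KCNAB1.

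Steroid and retinoid reductases and dehydrogenases had 3 that fell and none that rose among 18 tested (median 0.14). With library medians set equal 10 rose and 5 fell, and relative to genes with a pool mean above 50, 1 rose and 9 fell. DHRS9 was at 0 in both pools, and at 15.5 in the vector library in the transcript used and 1.48 to 1.65 in its other transcripts. DHRS3, a retinal reductase, had 0.163 and 0.325 in the pools, against 7.40 in the vector library, and HSD11B2, which inactivates cortisol, had 0 and 0.365 against 14.4. RDH10, a retinol dehydrogenase, had 342 and 293 in the pools, against 139 in the vector library (log2 fold 1.18, limma adjusted p = 0.0978). Of 11 antioxidant enzymes outside these lists 1 fell, SOD3, which was at 0 in both pools (median 0.36). Of these enzymes 8 rose and 1 fell with library medians set equal, and 4 fell relative to genes with a pool mean above 50.

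**Figure D4:**
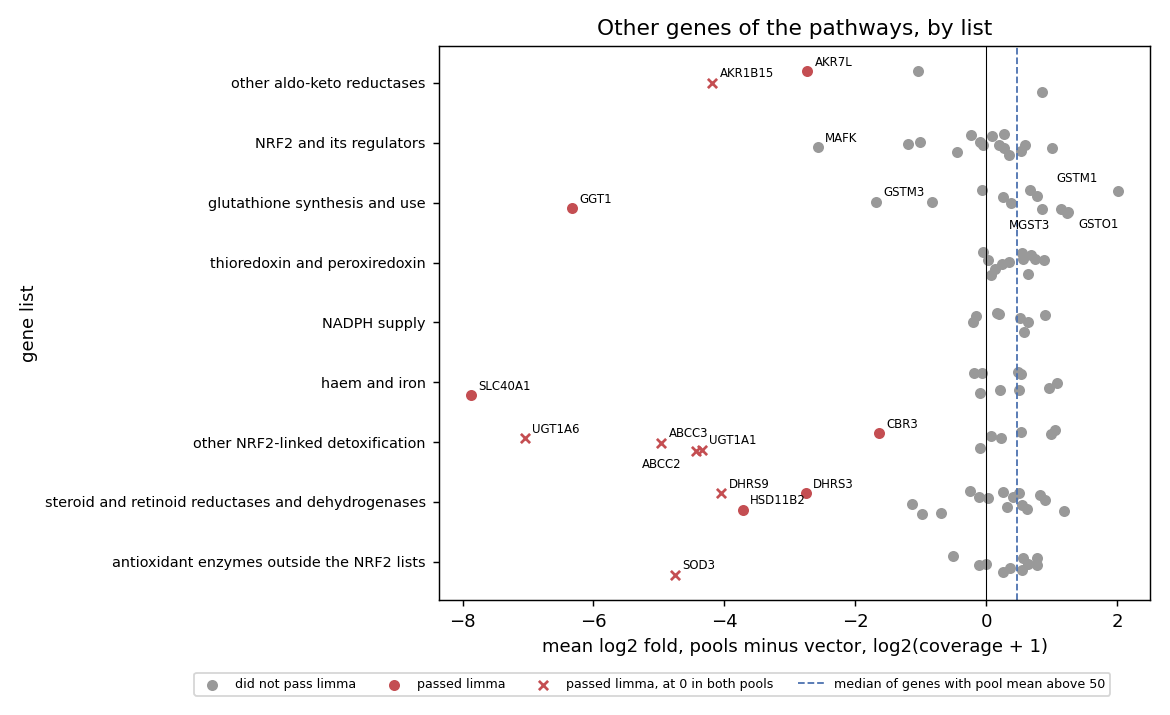
Mean log2 fold, pools minus vector, of each tested gene (points) in 9 lists of related genes (rows). Grey points did not pass limma, red circles passed it, and red crosses passed it while at 0 in both pools. The dashed line marks the median of genes with a pool mean above 50, averaged over the pools. The 13 red points all lie below 0, and 7 of them are crosses; with GGT1 and CBR3 excepted, they entered the test only through their vector value.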

How the data were processed

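Per the labels' protocols, the authors enriched poly-A RNA, sequenced reads of 100 nt, mapped them to hg19, and kept as the coverage signal of a gene the median of a density profile over windows of 50 bp. Quantile normalization on a log scale is named there too, yet the deposited coverage is linear and distributed differently in each library. The sources used here give no aligner. The table has 29156 transcripts, and 308 with a blank vector value were left out. Of 54 transcripts with date-like symbols, 53 were given their symbol back by accession. Of genes with any coverage, the lowest 25% by mean (up to 2.44) were left out, and the rest were tested on log2(coverage + 1) with limma 3.58.1 in R 4.3.3 (eBayes with a variance trend, Benjamini-Hochberg at 0.05), 2 miR-181a libraries against 1 vector library with 1 residual degree of freedom. The members and lists were chosen with earlier results of these data known. Named genes are the members, in each list those past the test or the size rule, up to 4 of each by absolute mean fold, NFE2L2, KEAP1 and BACH1, and the 5 nearest to AKR1C1; TXN, FTH1, FTL, AKR1C4, AKR1D1 and KCNAB1 were added after their values were seen. GRCh37 is the assembly of hg19. Alternatives covered filter, scaling, pseudocount, transcript, variance model, size threshold and each pool left out.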

Additional observations from a re-analysis of the deposited data

How the results depend on the processing

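Of the members, AKR1C1, AKR1C2, AKR1C3, NQO1, GCLC and HMOX1 kept the sign of their mean log2 fold in all 10 alternatives run, with ranges of 0.75 to 3.60, -2.59 to -1.20, -2.02 to -0.40, 0.95 to 1.83, -5.40 to -4.26 and -1.80 to -0.67. AKR1A1, AKR1B1, GCLM and TXNRD1 did not (8, 9, 8 and 9 of 10). In the genes that kept their sign both pools lay on the same side of the vector value. Only the scaling alternatives, and for AKR1C2 those of transcript, could therefore have changed it. No alternative used AKR1C2 NM_001354 by itself, with its mean log2 fold of 1.63, so the kept sign gives no single direction for AKR1C2. The 2 members higher by the size rule became 1 after the shift by genes with a pool mean above 50 (AKR1C1), with a pseudocount of 10 (NQO1) and at a threshold of 2 log2 units (AKR1C1), and the 4 lower became 2 with library medians set equal and with a pseudocount of 10 (AKR1C2 and GCLC) and 1 at a threshold of 2 (GCLC). Over all genes, limma called 126 that rose and 2725 that fell. These counts were 278 and 5626 with no filter, 402 and 1476 with a filter at the median, 710 and 5784 after the shift, and 6355 and 3701 with medians set equal. By the size rule 318 genes were higher and 3430 lower. The higher count was 2188 (beside 3078 lower) with medians set equal, 61 after the shift, 506 and 63 with pseudocounts of 0.1 and 10, and 2225 and 15 at thresholds of 0.5 and 2, and the lower count was 5718 with no filter, 1428 with a filter at the median and 2282 with a pseudocount of 10. The filters change which genes are tested; the cause of the other moves was not tested. Leaving out 1 pool gave 356 to 1305 genes higher, the higher count being without pool 2, and 3464 to 3859 lower, and 2 members higher and 4 lower each time; with 1 library against 1 there is no test. The list genes that rose numbered 0 to 62 and those that fell 6 to 40 over the alternatives. GGT1 and CBR3 passed limma in the 9 and 8 alternatives that tested them. The other 11 list genes that fell entered the test only through the vector value. With the transcript chosen without that value 10 list genes fell in place of 13. Over all genes 2156 then fell by limma and 2720 were lower by the size rule, and AKR1A1 and TXNRD1 had mean log2 folds of 0.45 and 0.59. The filter on low values still used the vector value, so the 10 list genes are not free of it. No paired analysis was possible because there is a single vector library. Depth is unknown, so no counting error can be given for the values of AKR1C1, AKR1C2 and AKR1C3.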
